A study of Mus musculus with 6 samples.

Results

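The dorsal interneuron homeobox and Pax genes are transcription factors that divide the dorsal part of the embryonic hindbrain and spinal cord into classes of relay and association neurons. The set held Lbx1, Tlx3, Pax3, Pax7, Lhx1, Lhx5, Lhx2, Lhx9, Barhl1 and Lmo1, and its members were all probe sets whose only annotated gene is one of these 10. They came to 15 probe sets of 22626 tested, and to 10 genes of 12393 with a symbol of their own on the array. Lbx1, Pax3, Lhx1, Lhx9 and Barhl1 had 2 probe sets each. Lmo1 is neither a homeobox nor a Pax gene: it encodes a LIM-only protein, without a DNA-binding domain, that binds the same cofactor Ldb1 as the LIM homeodomain proteins.

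RNA came from rhombomere 4, the hindbrain segment whose identity Hoxb1 specifies, of mouse embryos at E10.5 (embryonic day). The groups were 3 pools of segments from Hoxb1 mutant embryos and 3 pools from wild-type embryos, each pool hybridised to 1 Affymetrix 430A array, and the design text calls the pools independent biological replicates. The sources used here do not name the mutant allele or the strain, nor how many embryos made up a pool. Per the labels, the dissections also held branchial arch tissue, and in such bulk tissue fewer cells of a type cannot be told apart from less RNA per cell.

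In the dorsal neural tube, Pax3 and Pax7 mark dividing progenitors of the alar plate, and neurons leaving the cell cycle switch on other factors by position. The most dorsal neurons, born from Atoh1-expressing progenitors of the rhombic lip, take up Lhx2, Lhx9 and Barhl1. Neurons born further ventrally use Lbx1, Tlx3, Lhx1 and Lhx5, where Tlx3 favours the glutamatergic and Lbx1 with Lhx1 and Lhx5 the GABAergic type. Several members also act outside the neural tube, Pax3 and Pax7 in neural crest and muscle precursors, Lbx1 in migrating muscle precursors and Tlx3 in cranial sensory ganglia.

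Probe set intensities are on a linear scale. Each difference is the mean log2(intensity + 16) of mutants less that of wild type, a scale that shrinks the folds of dim probe sets, with the standard error (SE) of limma's moderated fit and a 95% interval. Adjusted p-values are limma's, after Benjamini-Hochberg over all 22626 probe sets, with a threshold of 0.05. Background is the 95th percentile of 27 bacterial control probe sets, an intensity of 61.5. Wild-type replicates 2 and 3 stood apart in their signal for 18S ribosomal RNA, which averaged 12.1 and 11.3 on the log2 scale, whereas the other 4 arrays ranged from 6.36 to 7.03. Results that rest on these 2 arrays are also given without them. The 18S signal as a covariate mostly separates the same 2 arrays from the rest, so both settings compare mutants chiefly with wild-type replicate 1.

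Hoxb1, the targeted gene, gave intensities of 60.8, 35.3 and 50.0 on the mutant arrays, against 341, 378 and 588 on the wild-type arrays. All mutant values lay below background, which makes the gene at least 6.88-fold lower in mutants (adjusted p = 0.0695). Nothing in the labels says whether the probes match a stretch that the mutant allele lacks.

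None of the 15 dorsal interneuron probe sets passed the test in limma. Their adjusted p-values ran from 0.833 to 0.997, and the share of all probe sets that passed was 0%. At an unadjusted p under 0.05 there was 1 member probe set (6.67%), that of Lmo1, lower in mutants. Of all probe sets 5.76% reached this p, 3.88% of all with the lower mean in mutants. The groups did not overlap in 2 member probe sets (13.3%), those of Lmo1 and 1 of Pax3, both lower in mutants. Of all probe sets 12.0% did not overlap, 7.08% of all with mutants lower. With counts of 1 and 2, these shares lie near those of the whole array. With each gene represented by its brightest probe set, 7 of 10 members had a lower mean log2 intensity in mutants, against 54.5% of all genes, and the median difference was -0.12, against -0.02 over all genes. With arrays centred on their medians the share of all genes was 43.7% and the members' count was still 7 of 10.

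**Figure D1:**
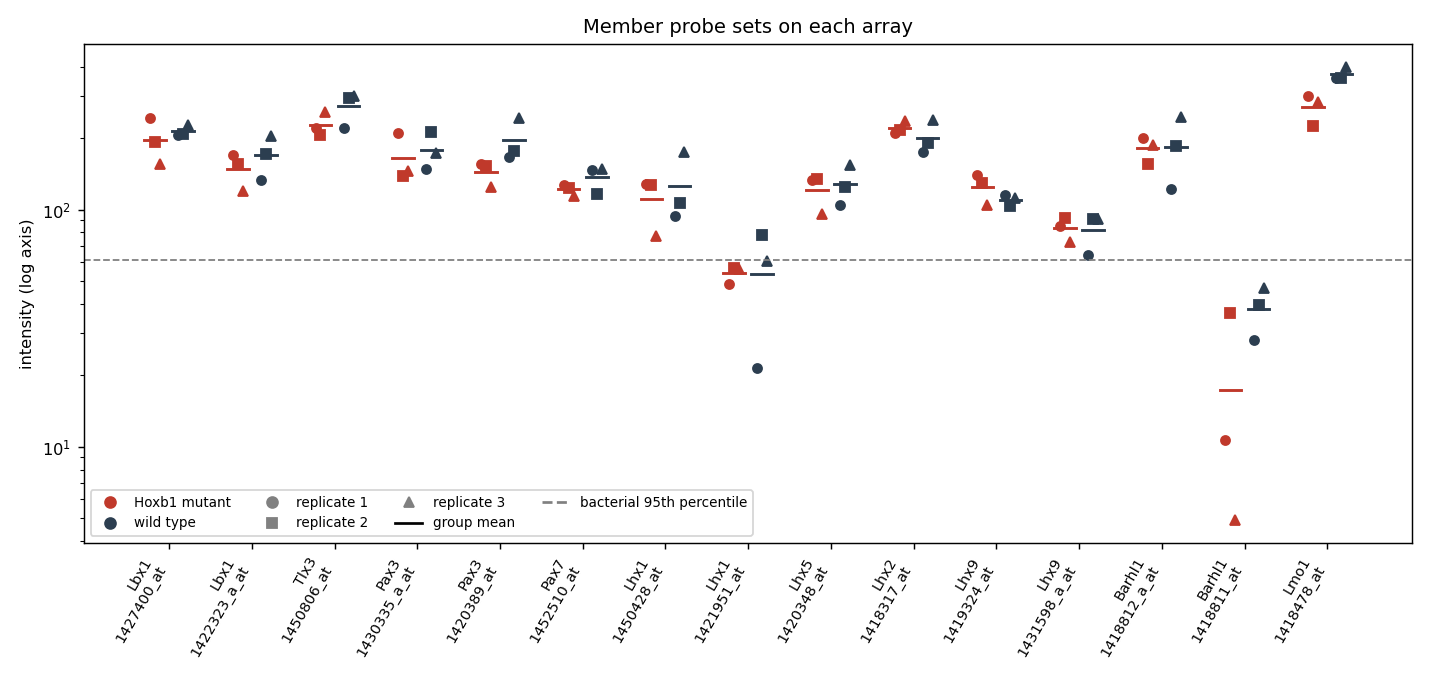
Intensity (log axis) of each member probe set on each array, Hoxb1 mutant left of wild type, with a symbol per replicate, a bar for the group mean and a dashed line at the bacterial 95th percentile of 61.5. The groups are apart in Lmo1 and in Pax3 1420389_at and interleaved in the other 13 probe sets.

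The progenitor genes Pax3 and Pax7 encode closely related proteins with a paired domain and a homeodomain. Pax3 probe set 1420389_at gave 155, 152 and 124 on the mutant arrays, against 166, 177 and 243 on the wild-type arrays. The groups were narrowly apart, with the highest mutant value just under the lowest wild-type value, and wild-type replicate 3 stood above the rest. The log2 difference was -0.39 (SE 0.17, interval -0.80 to 0.02), with an unadjusted p = 0.0583 and an adjusted p = 0.833 in limma. Without wild-type replicate 3 it was -0.24, and without wild-type replicates 2 and 3, which leaves 1 wild-type array assumed to vary like the mutants, it was -0.19.

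The other Pax3 probe set, 1430335_a_at, gave 209, 138 and 145 on the mutant arrays, against 149, 211 and 173 on the wild-type arrays. The groups overlapped fully, with mutant replicate 1 as high as the highest wild-type array. Its log2 difference was -0.11 (SE 0.20, interval -0.58 to 0.36), and across the 6 arrays the log2 intensities of the 2 Pax3 probe sets correlated at 0.34. Pax7 gave 127, 124 and 115 in mutants, against 147, 116 and 148 in wild type. Wild-type replicate 2 lay among the mutants and the other 2 wild-type arrays above them. The log2 difference of Pax7 was -0.15 (SE 0.13, interval -0.46 to 0.17).

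Lbx1 sets the fate of the more ventral of the dorsal interneurons, and in both of its probe sets the group difference was within the spread between arrays. Probe set 1427400_at gave 243, 193 and 155 in mutants, against 207, 207 and 228 in wild type. The wild-type arrays lay close together, inside the much wider range of the mutants, and the log2 difference was -0.13 (SE 0.17, interval -0.53 to 0.28). Probe set 1422323_a_at gave 171, 155 and 120.2 in mutants, against 133, 172 and 205 in wild type. Both probe sets had their lowest value on mutant replicate 3, and they correlated at 0.78 over the 6 arrays, the highest value among the 5 genes with 2 probe sets. The log2 difference of 1422323_a_at was -0.17 (SE 0.19, interval -0.63 to 0.29).

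Tlx3, a homeobox gene that selects the glutamatergic over the GABAergic fate, gave 221, 207 and 257 on the mutant arrays, against 221, 296 and 301 on the wild-type arrays. Wild-type replicates 2 and 3, the arrays with high 18S signal, were above all mutants, while wild-type replicate 1 was level with mutant replicate 1. The log2 difference was -0.24 (SE 0.16, interval -0.61 to 0.14; limma adjusted p = 0.854). Without wild-type replicates 2 and 3 it turned to 0.035, and with the 18S signal as a covariate it was 0.0098.

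Lhx1 and Lhx5 are paralogous LIM homeobox genes that maintain the inhibitory type of dorsal neurons. The brighter Lhx1 probe set and that of Lhx5 varied alike over the 6 arrays. Lhx1 probe set 1450428_at gave 129, 127 and 77.6 in mutants, against 93.7, 107 and 175 in wild type. Lhx5 gave 133, 135 and 96.1 in mutants, against 105, 125 and 153 in wild type. In both genes mutant replicate 3 was lowest, wild-type replicate 3 was highest, and the groups overlapped. Their log2 intensities correlated at 0.97 over the 6 arrays, the highest of the 45 pairs of members. Genes outside the set, Smg5, Fap and Sertad3, correlated more strongly with this Lhx1 probe set (0.986, 0.984 and 0.981). The log2 differences were -0.14 for Lhx1 1450428_at (SE 0.27, interval -0.77 to 0.50) and -0.06 for Lhx5 (SE 0.18, interval -0.50 to 0.37). Both turned positive without wild-type replicate 3, at 0.10 and 0.06, and without mutant replicate 3, at 0.07 and 0.076.

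The dimmer Lhx1 probe set, 1421951_at, gave 48.4, 56.8 and 56.2 in mutants, against 21.4, 78.3 and 60.7 in wild type. One value of the 6, that of wild-type replicate 2, lay above background. Its log2 difference was 0.11 (SE 0.33, interval -0.68 to 0.90), and the wild-type spread rested on replicate 1, without which the difference was -0.29. Without wild-type replicates 2 and 3 it was 0.90 (unadjusted p = 0.0053, limma adjusted p = 0.798), and with the 18S signal as a covariate 0.84 (unadjusted p = 0.00562, limma adjusted p = 0.803). In those 2 settings it was the only member probe set at an unadjusted p under 0.05, where 4.25% and 4.01% of all probe sets were, and without those arrays the values compared all lay below background. The 2 Lhx1 probe sets correlated at 0.28.

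Lhx2 and Lhx9, paralogous LIM homeobox genes of the most dorsal neurons, had slightly higher means in mutants. Lhx2 gave 210.4, 217 and 237 in mutants, against 174, 191 and 239 in wild type. Mutant arrays lay above wild-type replicates 1 and 2 and below wild-type replicate 3. The log2 difference of Lhx2 was 0.14 (SE 0.14, interval -0.20 to 0.48). Lhx9 probe set 1419324_at gave 139.6, 129 and 104 in mutants, against 115, 104 and 112 in wild type. Mutant replicates 1 and 2 were above all wild-type arrays and mutant replicate 3 was among them. The log2 difference of this probe set was 0.15 (SE 0.13, interval -0.18 to 0.47), and no setting tried brought Lhx2 or this Lhx9 probe set under an unadjusted p of 0.05.

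The dimmer Lhx9 probe set, 1431598_a_at, gave 85.4, 91.9 and 72.8 in mutants, against 64.3, 91.1 and 91.3 in wild type. The groups overlapped and the log2 difference was 0.02 (SE 0.16, interval -0.36 to 0.41). Atoh1, which specifies the progenitors of these neurons, gave 415 ± 96.7 in mutants and 402 ± 42.3 in wild type (SD, n = 3 each), a log2 difference of 0.02 (SE 0.18; limma adjusted p = 0.991).

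Barhl1, a homeobox gene of rhombic lip derivatives, could be read from probe set 1418812_a_at. It gave 201, 155 and 187 in mutants, against 123, 185 and 246 in wild type. The mutants lay inside the wild-type range, which was the wider one, and the log2 difference was 0.02 (SE 0.24, interval -0.56 to 0.59). The other probe set, 1418811_at, gave 10.6, 36.4 and 4.91 in mutants, against 28.2, 39.7 and 46.7 in wild type. All 6 values were below background, so no fold is given, and the fitted log2 difference of -0.80 (SE 0.34; unadjusted p = 0.0531, limma adjusted p = 0.833) compares values that cannot be told from it. The 2 Barhl1 probe sets correlated at 0.0042 over the 6 arrays.

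**Figure D2:**
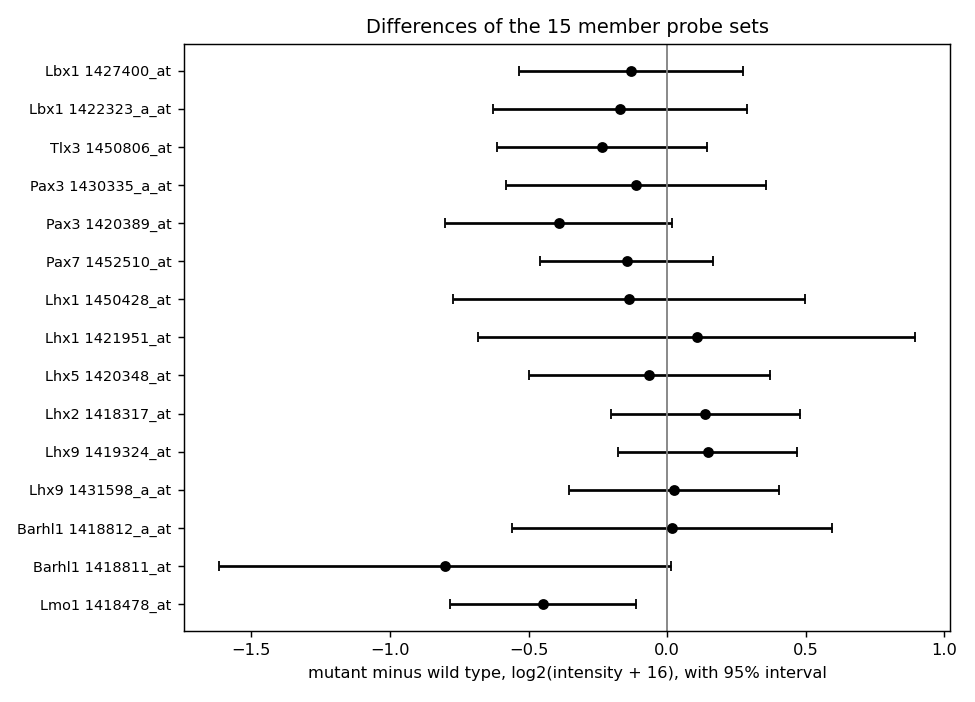
Difference in mean log2(intensity + 16) between mutants and wild type (x axis, positive where mutants are higher) for each of the 15 member probe sets, as point and 95% interval from the limma fit. The interval leaves out 0 in Lmo1 alone, from -0.78 to -0.11, and includes it in the other 14.

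Lmo1, whose protein competes with LIM homeodomain proteins for Ldb1, had the smallest p of the set. Its probe set 1418478_at gave 301, 226 and 284 on the mutant arrays, against 359.9, 358 and 401 on the wild-type arrays. All 3 mutant values were under all 3 wild-type values. The gap between the groups was wider than the range of the wild-type arrays and narrower than that of the mutant arrays. Means were 270.3 ± 39.4 in mutants and 373 ± 24.0 in wild type (SD, n = 3 each). The log2 difference was -0.45 (SE 0.14, interval -0.78 to -0.11), with an unadjusted p = 0.0161 and an adjusted p = 0.833 in limma.

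The lower mean of Lmo1 in mutants held under all 16 alternative settings, with log2 differences from -0.53 to -0.33, and the unadjusted p stayed under 0.05 in 13 of them. Without wild-type replicates 2 and 3 the difference was -0.40 (unadjusted p = 0.142), with the 18S signal as a covariate -0.40 (unadjusted p = 0.109), and without mutant replicate 2, the lowest Lmo1 array, -0.33 (unadjusted p = 0.0532). Adjusted p-values over these settings ran from 0.466 to 1.00. Summed intensities of tissue markers, which weigh bright genes most, did not overlap between the groups for hindbrain genes and, narrowly, for neural progenitor genes. The hindbrain sum includes the targeted gene Hoxb1. These sums are of intensities as deposited and were not centred on array medians. The medians were 214, 191 and 187 on the mutant arrays, against 204, 208 and 204 on the wild-type arrays. Whether the sums stay apart after centring was not tested. They overlapped for postmitotic neurons. The brightest hindbrain gene, Crabp1, averaged 5357 in mutants and 6094 in wild type, with overlapping groups. For 7 hindbrain genes the sums were 6897 to 7764 in mutants and 8512 to 9364 in wild type. Of these genes 7 of 7 were lower, Hoxb1 among them, against 54.5% of all genes. After quantile normalization or centring 5 of 7 were lower, against 49.6% and 43.7% of all genes. Hoxa2 and Egr2 were nearly level, with log2 differences of -0.0045 and -0.04. For 8 neural progenitor genes the sums were 8393 to 9148 in mutants and 9162 to 10348 in wild type, with 6 of 8 lower and none at background on all arrays. For 8 genes of postmitotic neurons they were 10101 to 13456 in mutants and 12505 to 14109 in wild type, with 7 of 8 lower. Their part in the Lmo1 difference was not tested.

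Since Lmo1 was the member of smallest p, the stretch before its start is shown here, with motifs in capitals. The promoter table from RefSeq (GRCm38.p6) matched 7 of the 10 members, with 10 start sites, each given as 250 bases before to 50 after the start. The letters searched on both strands were TGATNNAT, a Hox-Pbx binding motif, and TAATTA, a homeodomain core that reads the same on both strands. The first was found in 0 of the 10 member windows and in 8.85% of all 32851 windows of that length, and the second in 3 member windows, both of Lmo1 and 1 of Barhl1, and in 5.29% of all windows. Both Lmo1 windows overlap and share 1 match, which starts 186 bases before the first start site. The 250 bases before this start, on the minus strand at chr7:109175208-109175457, read 5′ to 3′ as follows, with TAATTA in capitals.
Lmo1: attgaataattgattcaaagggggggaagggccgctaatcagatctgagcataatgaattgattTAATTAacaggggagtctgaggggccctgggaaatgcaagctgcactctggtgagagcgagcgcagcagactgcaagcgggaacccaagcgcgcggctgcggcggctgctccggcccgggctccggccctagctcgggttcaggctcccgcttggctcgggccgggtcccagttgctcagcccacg
A match is a run of letters and does not show that a protein binds there.

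Among the 6 arrays, 2 arrays of replicate number 3, one of each genotype, held many of the extremes. Wild-type replicate 3 held the highest value in 10 of the 15 probe sets, and in 20.2% of all probe sets. Mutant replicate 3 held the lowest value in 7 of the 15, and in 22.0% of all probe sets. Among the brightest probe sets of the 10 genes, the median deviation from the mean of the 6 arrays was 0.22 on wild-type replicate 3, -0.16 on wild-type replicate 1 and -0.15 on mutant replicate 3 (log2 scale), against 0.01, 0.01 and -0.03 over all genes. The first and second of these are arrays of the same genotype.

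**Figure D3:**
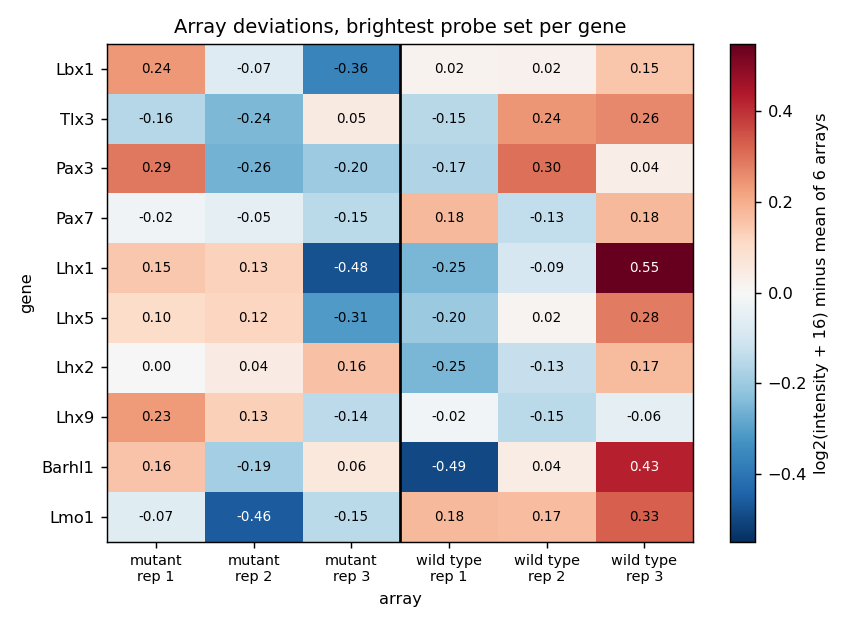
Log2(intensity + 16) of each gene's brightest probe set minus its mean over the 6 arrays (colour and printed value), with arrays in columns, mutant left of wild type, and genes in rows. Wild-type replicate 3 is highest in 7 of 10 genes, and the rows of Lhx1 and Lhx5 correlate at 0.97, with larger deviations in Lhx1 on both replicate 3 arrays.

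Of the 45 pairs of member genes, 34 had a positive correlation over the 6 arrays, with a median of 0.31. The lowest was -0.74, between Tlx3 and Lhx9. These arrays share their pools, labelling and scaling, and 6 points carry little weight. Among 17158 probe sets above background, those most like Lmo1 over the 6 arrays were of Arl2bp, Fn1 and Cphx3 (r = 0.991, 0.991 and 0.989). Those most like Lhx1 were of Smg5, Fap and Sertad3 (0.986, 0.984 and 0.981), and those most like Barhl1 were of Zswim1, Taf5l and Slc35e1 (0.990, 0.988 and 0.984). With 6 arrays these values of r are descriptions of likeness.

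The direction of the members' median depended on single arrays and on the 2 wild-type arrays of high 18S signal. It was 0.0056 without mutant replicate 3, -0.012 without wild-type replicate 3 and -0.11 without wild-type replicate 2. With all arrays 7 of the 10 genes were lower in mutants, and without those 2 arrays 3 of 10 were, with a median log2 difference of 0.10. With the 18S signal as a covariate 3 of 10 were lower, with a median of 0.11. Quantile normalization and centring on array medians gave -0.06 and -0.07, each with 7 of 10 lower.

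Other genes of dorsal interneurons and their progenitors gave no call either. Of 24 measured genes of this list, 16 had a lower and 8 a higher mean in mutants, 0 reached an unadjusted p under 0.05 in limma, against 5.46% of all genes, and the median log2 difference was -0.14. Quantile normalization and median centring each brought 2 of the 24 under this p, where 701 and 631 of all 12393 genes were, and the 18S covariate brought 1, where 415 were. Without wild-type replicates 2 and 3, 11 of the 24 were lower and the median was 0.02. The genes of smallest p were Rorb and Foxp2, in opposite directions. Rorb, a nuclear receptor gene, gave 80.9, 39.4 and 26.3 in mutants, against 75.3, 74.4 and 121 in wild type (fitted log2 difference -0.77, SE 0.33). Of its mutant values 2 lay below background, so the size of this difference is not measured. Foxp2, a forkhead gene, gave 225, 224 and 175 in mutants, against 188, 114 and 148 in wild type (0.45, SE 0.20). The groups overlapped in both.

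The next were Mab21l2, at 795 ± 69.1 in mutants and 1034 ± 258 in wild type, and the progenitor homeobox gene Gsx1, at 135 ± 26.0 in mutants and 171 ± 30.5 in wild type (SD, n = 3 each). Their log2 differences were -0.35 (SE 0.20) and -0.31 (SE 0.18), with limma adjusted p of 0.836 and 0.841. In Mab21l2 wild-type replicate 1, at 778, lay among the mutants, and only wild-type replicates 2 and 3, at 1030 and 1294, lay above them. Isl1, a LIM homeobox gene of dorsal interneurons that motor neurons and sensory ganglia also express, gave 1508 ± 65.7 in mutants and 1692 ± 124 in wild type, a log2 difference of -0.16 (SE 0.11).

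Among the partners and relatives of the LIM members, 13 of 16 measured genes had a lower mean in mutants, with a median log2 difference of -0.14, and 0 passed in limma. At an unadjusted p under 0.05 there were 2, both lower, as were 3.76% of all genes. With quantile normalization there were 2, and with median centring or the 18S covariate 1 each, where 701, 631 and 415 of all 12393 genes were. Without wild-type replicates 2 and 3, 11 of the 16 had a lower mean and the median was -0.07. Lhx3, which motor neurons and V2 interneurons express, gave 183, 139 and 97.7 in mutants, against 203, 249 and 199 in wild type. Ssbp3, which encodes a protein that stabilises Ldb1 complexes, gave 1436, 1727 and 1706 in mutants, against 1850.4, 2031 and 2391 in wild type. Neither gene's groups overlapped, and the log2 differences were -0.61 (SE 0.22; unadjusted p = 0.0281) and -0.36 (SE 0.14; unadjusted p = 0.0438), each with a limma adjusted p of 0.833.

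The other Pax genes gave no difference past the test. Of 6 measured, 5 had a lower mean in mutants and 3 of 6 had after quantile normalization or centring on medians. Pax6, a gene of ventral and intermediate progenitors, gave 397 ± 45.7 in mutants and 379 ± 12.9 in wild type (log2 difference 0.06, SE 0.12). Pax8 gave 135 ± 29.6 in mutants and 149 ± 19.0 in wild type (-0.14, SE 0.17), and Pax1, a gene of pharyngeal endoderm and sclerotome, gave 159.7 ± 29.9 in mutants and 175 ± 20.4 in wild type (-0.13, SE 0.16). Pax4 and Pax5 lay below background on all 6 arrays.

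**Figure D4:**
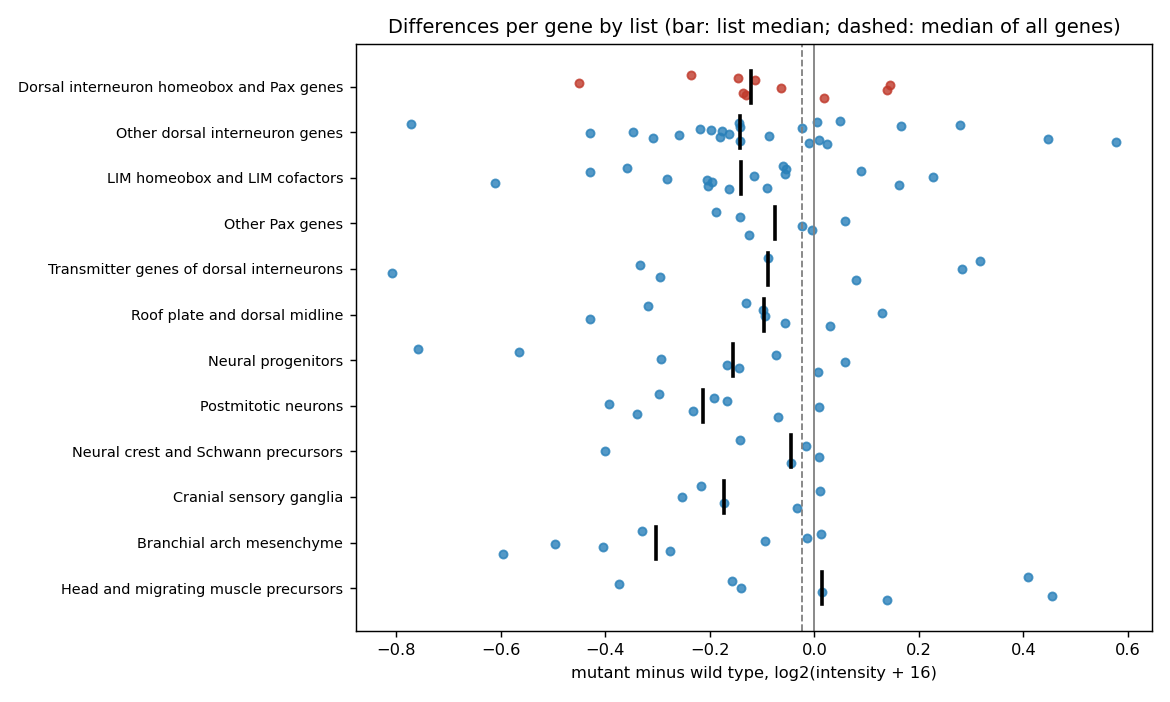
Log2 difference (x axis, mutant minus wild type) of each measured gene, by list, with a bar at the list's median, a solid line at 0 and a dashed line at the median of all genes, -0.02. The 10 dorsal interneuron homeobox and Pax genes spread from -0.45 to 0.15 around a median of -0.12.

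Markers of the other tissues in which members act were measured beside them. For neural crest, where Pax3 and Pax7 are expressed, 4 of 5 genes had a lower mean in mutants (2 of 5 with centring), with summed intensities of 1568 to 1655 in mutants and 1632 to 1874 in wild type. For cranial sensory ganglia, which express Tlx3, 4 of 5 were lower, with 1414 to 1927 in mutants and 1795 to 1986 in wild type. Quantile normalization, centring, the 18S covariate and leaving out wild-type replicates 2 and 3 each gave 3 of 5 lower. For branchial arch mesenchyme 7 of 8 were lower (4 of 8 without wild-type replicates 2 and 3), with 4439 to 5046 in mutants and 4793 to 6529 in wild type. For head and migrating muscle precursors 3 of 7 were lower, with 996 to 1206 in mutants and 956 to 1155 in wild type. Lbx1 and Pax3 are expressed in the migrating precursors, and Myf5 and Met lay below background on all arrays. The sum covers head and migrating precursors, so it does not measure the migrating ones on their own. For the otic vesicle 5 of 5 were lower, with 1369 to 1643 in mutants and 1634 to 2443 in wild type, and for the roof plate, which borders the most dorsal progenitors, 6 of 8 were, with 3216 to 3523 in mutants and 3271 to 3939 in wild type. The summed intensities overlapped between the groups in these 6 lists, and their part in the members' values was not tested. Sums overlapped as well for surface ectoderm (1 of 5 genes lower), blood (1 of 3) and endothelium (4 of 4). The median log2 differences of these lists were 0.11, 0.13 and -0.07.

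Of 5 genes of the forebrain, midbrain and isthmus, En1, En2 and Fgf8 lay below background on all 6 arrays, and Otx2 and Six3 lay above it on 3 mutant and 2 wild-type arrays each. Otx2 gave 90.2 ± 11.8 in mutants and 77.6 ± 19.1 in wild type, and Six3 gave 84.5 ± 14.2 in mutants and 90.0 ± 36.7 in wild type (SD, n = 3 each). Over all tested probe sets, arrays of the same genotype correlated at 0.976 to 0.984 and those of different genotypes at 0.973 to 0.983, and the median intensity of the tested probe sets was 187 to 214. The number of arrays limits the precision: the 95% intervals of the member differences reached 0.31 to 0.82 log2 units to either side. Changes within these intervals are not excluded by these values. The intervals are not adjusted for the number of probe sets tested, so larger changes could also miss the adjusted test. Lmo1, at -0.45, had a limma adjusted p of 0.833, and Hoxb1, at -2.78, one of 0.0695.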

How the data were processed

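The values deposited by the authors are intensities, judged by their range to be linear, for 22690 probe sets on each array. Per the submitters' processing notes the tool affy was used, with no version or algorithm named in the sources used here. Trimming 2% from both ends leaves a mean of 500.0 on every array, and this scaling was kept. After removal of 64 control probe sets 22626 were tested, of which 20380 name 1 gene. Symbols follow the platform annotation, updated by Entrez identifier through RefSeq (GRCm38.p6).

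Intensities were transformed to log2(intensity + 16) and the groups compared in limma 3.58.1 (R 4.3.3; lmFit, eBayes without trend, 2-sided), without covariates, and p-values were adjusted by Benjamini-Hochberg across the 22626 probe sets. The procedure was tested on simulated data with independent noise and no effect shared across an array, unlike the 18S signal seen here. For lists, each gene's brightest probe set stood for it. The members and lists were chosen with earlier results of these data known. Named were all members, Hoxb1, the 4 genes of smallest p and 3 brightest of the other dorsal interneuron genes, the 3 and 2 of the LIM and Pax lists, and the 3 probe sets most like each of the 3 members of largest SD. Gria2, Slc17a6 and Gad2 were picked with their values in view, and the rest of the transmitter list was named beside them. Alternatives tried were other scalings, pseudocounts, a low filter, eBayes with trend, array weights, the replicate block, an 18S covariate and leaving out arrays. Leaving out 2 wild-type arrays together, and the counts of groups that do not overlap without an array, were added after seeing the data.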

Additional observations from a re-analysis of the deposited data

How the results depend on the processing

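Of 237 member differences recomputed under 16 settings, 214 kept their sign, 23 reversed, and none passed in limma, with a lowest adjusted p of 0.466. Pax7, Lhx2, Lmo1, Lhx9 1419324_at, Pax3 1420389_at and Barhl1 1418811_at never reversed. With the 18S covariate reversals were Lbx1 1422323_a_at 0.10, Tlx3 0.0098, Pax3 1430335_a_at 0.15, Lhx1 1450428_at 0.12 and Lhx5 0.14, and without wild-type replicates 2 and 3 they were 0.13, 0.035, 0.11, 0.18 and 0.17. With array weights Lhx5 was 0.022. Leaving out single arrays gave -0.28 to 0.019 for Lbx1 1427400_at, -0.29 to 0.0085 for Pax3 1430335_a_at, -0.30 to 0.10 and -0.29 to 0.38 for Lhx1 1450428_at and 1421951_at, -0.18 to 0.076 for Lhx5, -0.11 to 0.10 for Lhx9 1431598_a_at and -0.22 to 0.24 for Barhl1 1418812_a_at. The cause was not tested.

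The members' median was 0.11 with the 18S covariate, 0.10 without wild-type replicates 2 and 3, and -0.20 to 0.0056 without single arrays, the upper end without mutant replicate 3. Member probe sets at an unadjusted p under 0.05 were 2 of 12 with the low filter, 2 of 15 with trend and 2 of 15 with the replicate block, where 6.91%, 6.24% and 6.02% of all probe sets were. Without single arrays they were 1 to 3, where 4.68% to 8.73% of all probe sets were, the 3 without wild-type replicate 1 (Tlx3, Pax3 1420389_at and Lmo1; 6.11% of all). Member probe sets whose groups do not overlap numbered 3 to 6 without single arrays, where 19.3% to 29.0% of all probe sets did, and 7 without wild-type replicates 2 and 3, where 44.0% did; fewer arrays overlap less by construction. Over all probe sets, the adjusted p passed in 3 with quantile normalization, 4 with median centring, 2 with the low filter, 3 with trend and 4 with array weights. An unadjusted p under 0.05 was reached by 2093 with array weights and 1059 to 1975 without single arrays, most without mutant replicate 1. Same-numbered samples deviated from their group means with correlations of 0.05, -0.02 and 0.04, and samples of different numbers with -0.08 to 0.04. Sample titles also carry codes that match by number, and whether these samples share a litter or batch was not tested. The main fit did not pair them. With the replicate number as a block, 1361 probe sets had an unadjusted p under 0.05 in limma and no member's adjusted call changed. The adjusted p of Hoxb1 ran from 0.0114 to 0.743 and passed in 4 of 16 settings.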

Other observations

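Among 7 transmitter genes of dorsal interneurons, 4 had a lower mean in mutants and 1 reached an unadjusted p under 0.05, against 5.46% of all genes, or 3.76% with mutants lower. Without wild-type replicates 2 and 3, and with the 18S signal as a covariate, 0 of the 7 did in limma. The gene was Gria2, an AMPA receptor subunit, at 162, 102 and 81.8 in mutants, against 170.3, 168 and 303 in wild type, with no overlap of the groups and a log2 difference of -0.81 (SE 0.30; limma adjusted p = 0.833). Slc17a6, the vesicular glutamate transporter gene that Tlx3-expressing neurons use, gave 193, 124 and 63.8 in mutants, against 123, 147 and 189 in wild type, with overlapping groups. The GABA-synthesising enzyme gene Gad2 gave 102 ± 18.8 in mutants and 128 ± 13.1 in wild type (SD, n = 3 each), a log2 difference of -0.29 (SE 0.15). Slc6a5 was also lower (-0.09), while Pnoc, Gad1 and Slc32a1 had higher means in mutants (0.28, 0.08 and 0.32). Slc32a1 lay below background on all 6 arrays.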
